A study of Mus musculus with 6 samples.

Results

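Resident macrophages of the bone marrow were described through 10 genes: Siglec1, Vcam1, Adgre1, Cd163, Spic, Hmox1, Slc40a1, Mertk, Axl and C1qa. They were chosen as known genes of marrow macrophages and of erythroblastic islands, and all 10 were found among the 49315 genes of the count table and passed the filter on low counts, which left 16956 genes for testing. Messenger RNA was measured in mouse bone marrow from animals fed the HFSC diet, named here as the labels name it, and exposed to hindlimb ischemia, a loss of blood flow to a leg. The KO group held 3 libraries from miR-181a2b2-/- animals (replicates 2, 3 and 4), and the WT group held 3 libraries from animals labelled miR-181a2b2flox/flox, whose locus carries loxP sites (replicates 1, 3 and 4). Diet and ischemia were shared by both groups, so no library came from an animal without them. The labels name no Cre, age or sex. They also leave unsaid whether each library is a different animal, and the p-values below therefore speak only of the spread among these 6 libraries.

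An erythroblastic island is a central macrophage ringed by maturing red cell precursors. The macrophage holds the erythroblasts through adhesion molecules, engulfs the nuclei that they expel, and breaks down haem so that its iron can be used again. The same cells clear dying leukocytes in the marrow. Siglec1, Adgre1 and C1qa are used as macrophage genes in mouse marrow, although Adgre1 is also carried by eosinophils and monocytes, while Vcam1, Hmox1, Slc40a1 and Axl are also made by endothelial, stromal or other blood cells.

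The microRNAs of the deleted locus, whose mature levels were not measured, are shown first because deletion of that locus defines the KO group. They lie on chromosome 2 (GRCm38.p6, plus strand), and the mature forms below come from RefSeq, miR-181a-5p from 38852741 to 38852763 and miR-181b-5p from 38853845 to 38853868. Capitals mark the seed, bases 2 to 8, which pairs with a target messenger RNA.
miR-181a-5p: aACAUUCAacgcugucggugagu
miR-181b-5p: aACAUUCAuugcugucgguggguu
Both have the same seed. Its complement in a transcript reads TGAATGT, and these letters were sought on the transcript strand of the annotated 3' UTR of each gene. They were present in 3 of the 10 macrophage genes and in 15.4% of the 21006 genes with an annotated 3' UTR. Each match is shown with 11 bases on either side, the matched letters in capitals: Cd163 on chromosome 6 (124329721 to 124329727, plus strand), Mertk on chromosome 2 (128802564 to 128802570, plus strand) and Slc40a1 on chromosome 1 (45908925 to 45908931, minus strand), all GRCm38.
Cd163: aaccatatttgTGAATGTgaccacttaat
Mertk: tagcacaacttTGAATGTgatagcacaca
Slc40a1: tagttagataaTGAATGTtatccttatta
None of the 3 matches is followed by an A, the letter that would extend it to an 8-base site. The other 7 genes, Siglec1 among them, held no such letters in the 3' UTR examined. A match in letters is not a shown binding site.

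Total counts lay between 33861440 and 39566582 in the KO libraries and between 34000323 and 40359093 in the WT libraries. Mir181a-2 and Mir181b-2 had 0 counts in every library, which in poly(A)-selected RNA does not check the genotype. Over all genes, 159 were higher and 258 lower in KO marrow (edgeR quasi-likelihood test, Benjamini-Hochberg adjusted p under 0.05), that is 0.938% and 1.52% of those tested. The share of higher genes among those called was 38.1%, and it was 17.8% with library totals as the only scaling and 52.9% with DESeq2. Libraries with Xist above 1 CPM, a sign of female tissue, numbered 1 of 3 in KO and 2 of 3 in WT. The total of 417 genes was 32, 33, 37 and 199 without KO replicate 4 or WT replicate 1, 4 or 3, and 920 without KO replicate 3. Markers of other marrow cells were also compared. The summed level of 10 neutrophil markers was 63561 to 77753 CPM (counts scaled to a common library total, after TMM) in KO and 42706 to 53847 CPM in WT, and 3 of the 10 rose (Elane, Camp and S100a8). All 10 had every KO library above every WT library. The count was 10 with DESeq2 and 7 with limma or no low-count filter, but 0 with the replicate block or the Xist covariate, or without KO replicate 4 or WT replicate 1 or 4. The summed level of 12 immediate early genes, which react to handling of tissue as well as to signals in the animal, was 2067 to 2846 CPM in KO and 5138 to 6559 CPM in WT, and 11 of the 12 fell (6 to 12 when a library was left out, with 6 without KO replicate 4 or WT replicate 1 or 4). Of 10 erythroblast markers 2 fell (Sptb and Ermap). The count was 3 in several other fits, among them DESeq2, limma and the fit without KO replicate 2. It was 0 without KO replicate 4 or WT replicate 1 or 4. The 10 erythroblast markers had a median log2 fold change of -0.37. At an unadjusted edgeR p under 0.05, 5 were lower (12.2% of all genes tested were) and 0 higher. Every KO library lay below every WT library for 3 of them, against 14.7% of all genes tested. The summed levels overlapped (12459 to 21396 CPM in KO and 13096 to 29026 CPM in WT), and most of that sum came from Hba-a1 and Hbb-bs. Bone marrow is the labelled source, but the extraction text names white adipose tissue. The summed level of 6 adipocyte genes was 24.5 to 40.3 CPM in KO and 16.8 to 26.5 CPM in WT, most of it from Fabp4, which endothelium and macrophages also make. Of the 3 that could be tested 0 passed (median log2 fold change 0.59), and Lep did not exceed the floor of 3 counts in any library. The part of adipose cells in the levels below was not tested.

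Per kilobase of exon, the 10 genes covered a wide range of levels. Hmox1 was highest, at 46.5 ± 3.25 CPM per kilobase in KO and 47.0 ± 10.7 in WT (SD, n = 3 each). C1qa and Slc40a1 followed, with 28.6 ± 5.68 and 26.4 ± 0.771 CPM per kilobase in KO and 23.7 ± 3.28 and 25.0 ± 2.75 in WT. The ranges of C1qa and Slc40a1 over the 6 libraries overlapped, so their order is not resolved. Vcam1 and Adgre1 formed the next pair, at 16.9 ± 1.94 and 15.7 ± 0.889 CPM per kilobase in KO and 14.4 ± 1.08 and 14.6 ± 1.49 in WT, again with overlapping ranges. Axl lay below them at 7.64 ± 0.460 CPM per kilobase in KO and 9.48 ± 1.21 in WT. Cd163, Mertk, Spic and Siglec1 were lowest, between 0.945 and 2.22 CPM per kilobase in KO and between 1.51 and 3.17 in WT, and neighbours among these 4 overlapped over the 6 libraries. Spic, the least counted gene, still had 176 to 220 reads per library in KO and 236 to 303 in WT. Fold changes of these 4 genes therefore rest on far fewer reads than those of Vcam1, which had 4666 to 6124 per library in KO and 4238 to 5819 in WT.

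**Figure D1:**
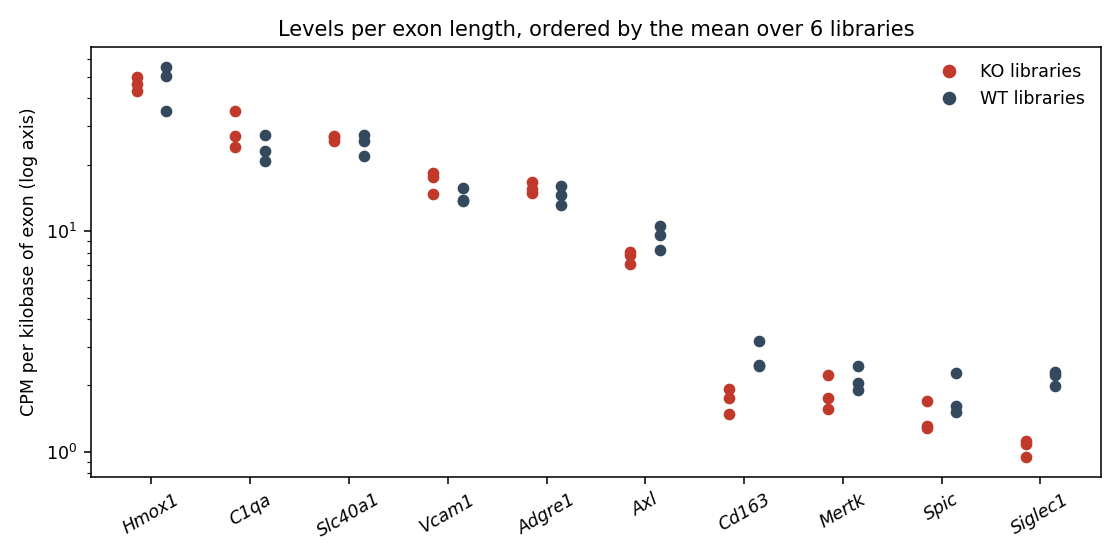
Levels of the 10 genes in each library as CPM per kilobase of exon on a log axis, ordered by the mean over the 6 libraries, with KO libraries to the left of WT libraries. Hmox1 stands highest and Cd163, Mertk, Spic and Siglec1 lowest, and the KO and WT points of Siglec1 are clearly apart.

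The comparison of KO with WT asked whether marrow macrophage genes differ when the miR-181a2b2 locus is absent. Siglec1 fell to 0.483 times its WT level, and 0 of the 10 genes rose. The remaining 9 missed the adjusted p threshold of 0.05 (edgeR), so 1 of 10 genes was called lower against 1.52% of all genes tested, and 0 of 10 higher against 0.938%. At an unadjusted p under 0.05, 3 of the 10 were lower (Siglec1, Cd163 and Axl), against 12.2% of all genes tested. The same 3 genes had every KO library below every WT library, a pattern found in 14.7% of all genes tested, and 0 had every KO library above, which 14.4% of all genes did. The median log2 fold change (KO minus WT) of the 10 was -0.11, beside -0.01 for all genes tested. DESeq2 called Siglec1 and Cd163 lower, 2 of 10 against 5.36% of the 13864 genes that its own filter kept, and limma with weights for library quality called the same 2, against 3.31%.

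**Figure D2:**
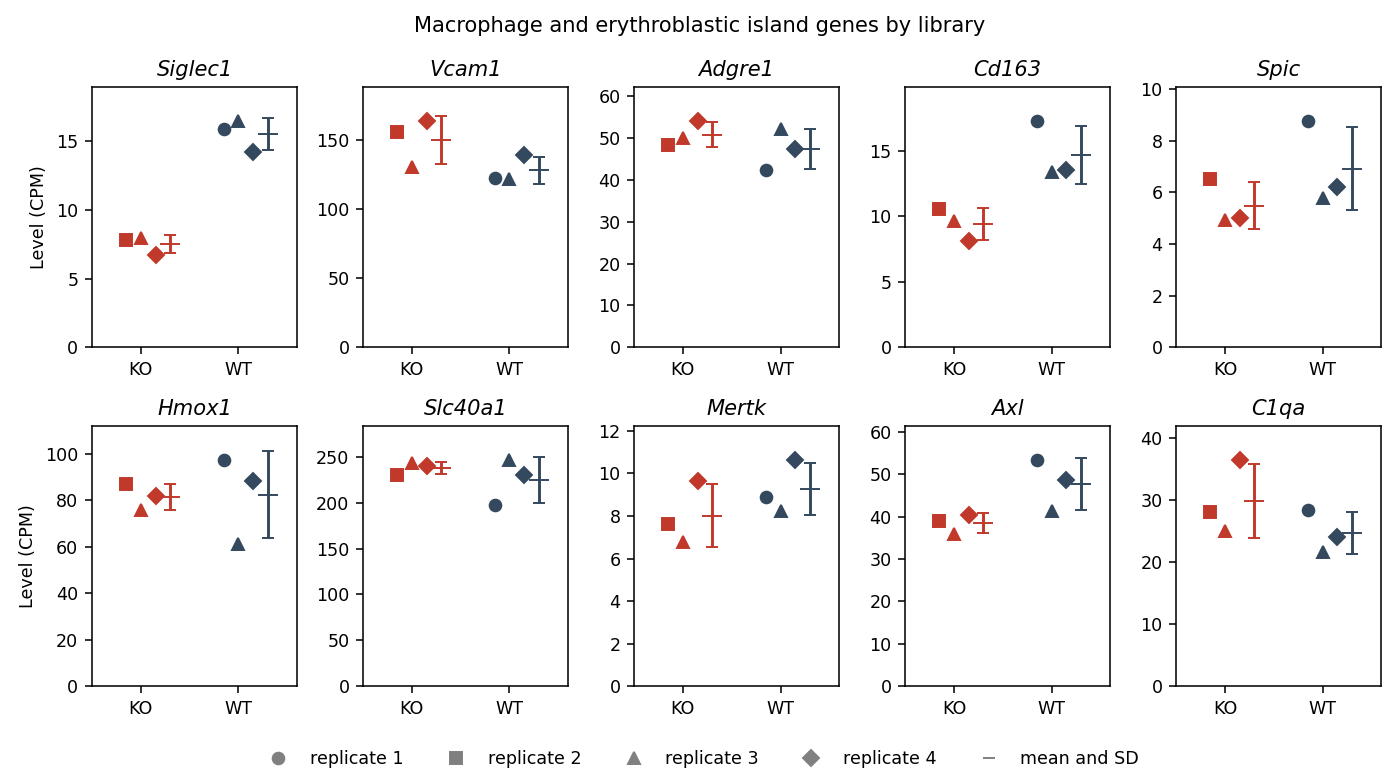
Level of each gene in CPM in every library, KO to the left of WT, with symbols for the replicate number and bars for the group mean and SD (n = 3 each). Only Siglec1, Cd163 and Axl have all KO libraries below all WT libraries, and Siglec1 has the widest gap, 6.75 to 7.97 CPM in KO beside 14.2 to 16.5 CPM in WT.

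Siglec1 encodes sialoadhesin (CD169), a receptor for sialic acid on neighbouring cells that marks island macrophages and macrophages of the stem cell niche. The gene, ENSMUSG00000027322, lies on chromosome 2 (GRCm38, 131069220 to 131086765, minus strand), and no other annotated gene overlaps it. It had 7.78, 7.97 and 6.75 CPM in KO replicates 2, 3 and 4, against 15.9, 16.5 and 14.2 CPM in WT replicates 1, 3 and 4. The KO libraries lay close together and well below the lowest WT library. In reads, this was 253 to 285 per library in KO and 550 to 671 in WT. This gave a log2 fold change of -1.05 ± 0.13 (SE, 3 against 3 libraries). Its 95% interval was -1.33 to -0.77, and the edgeR adjusted p was 0.0103. In bulk marrow, fewer cells that make Siglec1 and less Siglec1 RNA per cell cannot be told apart.

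The Siglec1 difference was lower in KO and past the threshold in each of the 10 alternative fits and in each of the 6 fits without a library. Its log2 fold change in those fits ran from -1.12 (library totals only) to -0.93 (trend on exon length and GC content removed). With the Xist state of the libraries as a covariate it was -1.05 (adjusted p = 0.0219). Leaving out a library gave adjusted p values from 0.0103 to 0.0412.

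Siglec1 is also known as an interferon-induced gene, and an interferon list was therefore set beside it. Of 14 such genes, 0 rose and 0 fell in edgeR, 0 higher and 2 lower at an unadjusted p under 0.05, and their median log2 fold change was -0.00. The 2 with the smallest p were Mx1, an antiviral GTPase, at 16.1 ± 0.248 CPM in KO and 21.5 ± 4.79 CPM in WT (SD, adjusted p = 0.139), and Rsad2, the antiviral protein viperin, at 249.8 ± 28.0 CPM in KO and 349 ± 96.0 CPM in WT (adjusted p = 0.158). Mx1 and Rsad2 each had every KO library below every WT library. They were the 2 genes of the list with this pattern, and 0 had every KO library above. These patterns were found in 14.7% and 14.4% of all genes tested. The summed level of the list was 726 to 904 CPM in KO and 723 to 1043 CPM in WT, with overlap between the groups.

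Vcam1 encodes the adhesion molecule on island macrophages that binds the Itga4 integrin of erythroblasts (ENSMUSG00000027962, chromosome 3, 116109949 to 116129688, minus strand). It had 156, 130.4 and 163 CPM in KO replicates 2, 3 and 4, and 123, 122 and 139 CPM in WT replicates 1, 3 and 4. The groups overlapped, since KO replicate 3 lay below WT replicate 4. A log2 fold change of 0.23 ± 0.11 (SE) did not pass (edgeR adjusted p = 0.228), and its 95% interval allowed 0.993 to 1.39 times the WT level. Vcam1 is made by marrow stroma and endothelium too. Of 10 stroma and bone markers 0 passed (median log2 fold change 0.10, summed level 398 to 477 CPM in KO and 245 to 414 CPM in WT), and of 10 endothelial markers 0 passed (median -0.20, 102 to 136 CPM in KO and 119 to 151 CPM in WT). The stroma and bone markers moved apart, with 1 higher (Lepr, log2 fold change 0.69) and 1 lower (Runx2, -0.33) at an unadjusted edgeR p under 0.05. Cxcl12 was the largest part of their sum, at 253 to 333 CPM in KO and 126 to 263 CPM in WT (log2 fold change 0.68, edgeR adjusted p = 0.221). The endothelial markers also moved apart, with 1 higher (Cdh5, log2 fold change 0.45) and 1 lower (Pecam1, -0.31) at an unadjusted edgeR p under 0.05. Vwf and Pecam1 were the largest parts of the endothelial sum. Vwf had 35.5 to 54.0 CPM in KO and 44.7 to 68.5 CPM in WT, and Pecam1 had 35.6 to 43.3 CPM in KO and 44.0 to 52.2 CPM in WT. The part of stroma and endothelium in the Vcam1 level was not tested. Gm43109, an antisense gene, overlaps the 5' end of Vcam1, and whether the counting used strand is not stated, so reads of the pair cannot be told apart.

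Adgre1 encodes the F4/80 antigen, the classical surface marker of mouse macrophages (ENSMUSG00000004730, chromosome 17, 57358691 to 57483527, plus strand). Its levels were 48.5, 50.1 and 54.1 CPM in KO replicates 2, 3 and 4, and 42.4, 52.1 and 47.5 CPM in WT replicates 1, 3 and 4. The groups overlapped, with a log2 fold change of 0.10 ± 0.10 (SE, edgeR adjusted p = 0.548) and a 95% interval from 0.925 to 1.25 times the WT level. A fall of the size seen for Siglec1 thus lay outside the interval for Adgre1.

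Each gene was next divided by Adgre1 within its own library, which removes the scaling between libraries. Siglec1 had 0.161, 0.159 and 0.125 counts per Adgre1 count in KO replicates 2, 3 and 4, and 0.375, 0.316 and 0.300 in WT replicates 1, 3 and 4. The ratio was thus 0.148 ± 0.0202 in KO and 0.330 ± 0.0392 in WT (SD, n = 3 each), without overlap. Cd163 had 0.187 ± 0.0343 counts per Adgre1 count in KO and 0.316 ± 0.0800 in WT, also without overlap. For the other 7 genes the ratios of the groups overlapped. Slc40a1 was the steadiest, at 4.68 ± 0.215 counts per Adgre1 count in KO and 4.75 ± 0.0969 in WT. The two-sided exact permutation p was 0.1 for Siglec1 and Cd163, which is the smallest that 3 against 3 libraries can give, and 0.45 after adjustment over the 9 ratios. The ratios of Siglec1 and Cd163 were thus apart between the groups, but with so few libraries this test cannot establish unequal change. A ratio also does not tell whether the gene itself or Adgre1 changed.

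**Figure D3:**
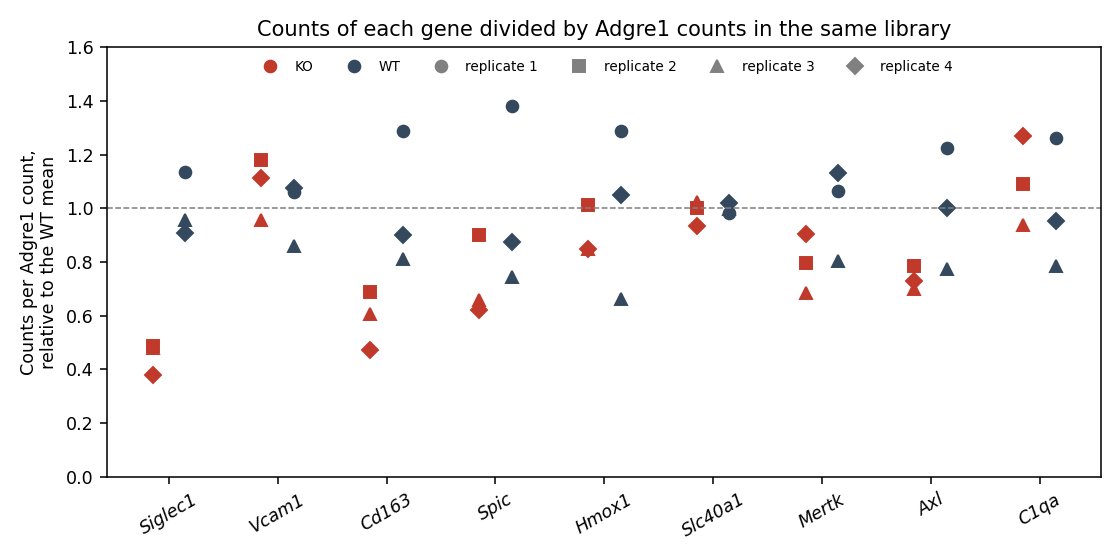
Counts of each gene divided by the Adgre1 counts of the same library, drawn relative to the WT mean of that ratio, with KO to the left of WT and symbols for the replicate number. Siglec1 and Cd163 have all KO points below all WT points, and the points of Slc40a1 cluster near the dashed line that marks the WT mean.

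The adhesion partners on the island side and the erythroblast side were compared as a list. Of 8 genes, 7 were tested, 0 rose and 0 fell in edgeR, and the median log2 fold change was -0.01. Itga4, the integrin subunit that binds Vcam1, had 220.5, 336 and 223 CPM in KO replicates 2, 3 and 4, and 369, 414 and 390.2 CPM in WT replicates 1, 3 and 4. Every KO library was below every WT library, with a log2 fold change of -0.59 ± 0.16 (SE) that did not pass (edgeR adjusted p = 0.0809). In the list 1 gene was called lower with no low-count filter, DESeq2, limma or without KO replicate 3. Itga4 is carried by many marrow leukocytes, including B cells, whose 8 markers had a median of -0.96 (0 passed, summed level 102 to 308 CPM in KO and 252 to 406 CPM in WT). The count of B cell markers called lower was 7 with the replicate block, 5 without KO replicate 2, and 2 with DESeq2 or without WT replicate 3. Maea, which encodes the erythroblast macrophage protein, had every KO library above every WT library and a log2 fold change of 0.25 ± 0.08 (SE, adjusted p = 0.116). In the list, 2 genes had all KO libraries above all WT libraries and 1 had all below. These patterns were found in 14.4% and 14.7% of all genes tested. Icam4, an erythroblast ligand, had 0 counts in every library.

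Haem and iron genes come next. Cd163 encodes a scavenger receptor for haemoglobin and lies on chromosome 6 (ENSMUSG00000008845, 124304656 to 124330527, plus strand). It had 10.6, 9.61 and 8.11 CPM in KO replicates 2, 3 and 4, against 17.3, 13.4 and 13.5 CPM in WT replicates 1, 3 and 4. All KO libraries were below all WT libraries, and WT replicate 1 stood above the other two WT libraries. On the log2 scale the difference was -0.64 ± 0.15 (SE), or 0.507 to 0.809 times the WT level as a 95% interval, and the edgeR adjusted p of 0.0564 was just outside the threshold. The value was past the threshold in 5 of 10 alternative fits, among them DESeq2 (adjusted p = 0.00495) and limma with quality weights (adjusted p = 0.0447), and in 1 of 6 fits without a library, the fit without KO replicate 2 (adjusted p = 0.0494). Without KO replicate 4 it was -0.54 (adjusted p = 0.211) and without WT replicate 1 -0.51 (adjusted p = 0.147). Cd163 is 1 of the 3 genes with the miR-181 letters in its 3' UTR.

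Spic encodes a transcription factor of iron-recycling macrophages in spleen and marrow (ENSMUSG00000004359, chromosome 10, 88674772 to 88685015, minus strand). Levels of 6.53, 4.92 and 5.02 CPM in KO replicates 2, 3 and 4 overlapped with 8.76, 5.79 and 6.20 CPM in WT replicates 1, 3 and 4. Its log2 fold change of -0.33 ± 0.20 (SE) did not pass (edgeR adjusted p = 0.344), with a 95% interval from 0.580 to 1.09 times the WT level.

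Hmox1 encodes haem oxygenase, which opens the haem ring and frees its iron (ENSMUSG00000005413, chromosome 8, 75093621 to 75100589, plus strand). Its levels were 87.1, 75.7 and 81.7 CPM in KO replicates 2, 3 and 4, and 97.2, 61.3 and 88.5 CPM in WT replicates 1, 3 and 4. The WT libraries spanned the whole range, with WT replicate 1 highest and WT replicate 3 lowest of the 6. Its log2 fold change was near 0, at -0.01 ± 0.16 (SE, edgeR adjusted p = 0.968). The 95% interval allowed 0.774 to 1.27 times the WT level, and the sign was positive with DESeq2, with the replicate block and without KO replicate 3 or WT replicate 1 or 4.

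The summed level of the erythroblast markers, most of it from Hba-a1 and Hbb-bs, moved across the libraries in a like order to Hmox1. It was 21396, 12459 and 14516 CPM in KO replicates 2, 3 and 4, and 29026, 13096 and 21757 CPM in WT replicates 1, 3 and 4. WT replicate 1, WT replicate 4 and KO replicate 2 thus held the highest sums, and the same 3 libraries held the highest Hmox1 and the highest Spic levels. This order was noticed after the values were seen, and the part of erythroblast content in the Hmox1 and Spic levels was not tested.

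Slc40a1 encodes ferroportin, the exporter that returns iron to the plasma (ENSMUSG00000025993, chromosome 1, 45908068 to 45926523, minus strand). At 230.1, 243 and 240.2 CPM in KO replicates 2, 3 and 4 and 198, 246 and 230.3 CPM in WT replicates 1, 3 and 4, it had the highest CPM of the 10 genes. The groups overlapped, and the log2 fold change was 0.08 ± 0.10 (SE, edgeR adjusted p = 0.665), with a 95% interval from 0.902 to 1.24 times the WT level. Slc40a1, like Cd163 and Mertk, has the miR-181 letters in its 3' UTR, and the values of these 3 genes lay on both sides of 0.

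Other genes of haem and iron handling were examined as a list of 15. In edgeR 0 rose and 0 fell, 0 were higher and 1 lower at an unadjusted p under 0.05, and the median log2 fold change was 0.09. Slc11a2, which encodes an iron importer of endosomes, had 47.4, 43.0 and 40.7 CPM in KO replicates 2, 3 and 4, against 64.7, 52.3 and 65.1 CPM in WT replicates 1, 3 and 4, without overlap. Its log2 fold change was -0.47 ± 0.11 (SE, edgeR adjusted p = 0.0525). The list had 1 gene called lower in several other fits, among them DESeq2, limma and the fits without KO replicate 2 or WT replicate 3. Erythroblasts make this importer as well. Ftl1, the ferritin light chain, had every KO library above every WT library and a log2 fold change of 0.22 ± 0.11 (SE, adjusted p = 0.240). Its level is uncertain because ferritin genes have near-identical copies.

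Dying cells are cleared with the help of the receptors Mertk and Axl, their bridging ligands, and the complement tag C1q. Axl, a receptor kinase that recognises dying cells through the ligand Gas6 (ENSMUSG00000002602, chromosome 7, 25757273 to 25788705, minus strand), had 39.1, 35.9 and 40.4 CPM in KO replicates 2, 3 and 4, against 53.3, 41.2 and 48.6 CPM in WT replicates 1, 3 and 4. The groups did not overlap, although KO replicate 4 and WT replicate 3 were nearly level. A log2 fold change of -0.31 ± 0.11 (SE) had a 95% interval of 0.682 to 0.952 times the WT level at an unadjusted edgeR p of 0.0165, and it did not pass over all genes (adjusted p = 0.126). In 10 alternative fits and 6 fits without a library the adjusted p of Axl lay between 0.0652 and 0.309.

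Mertk, the related receptor that drives engulfment (ENSMUSG00000014361, chromosome 2, 128698956 to 128802894, plus strand), had 7.63, 6.76 and 9.63 CPM in KO replicates 2, 3 and 4, and 8.90, 8.25 and 10.6 CPM in WT replicates 1, 3 and 4. The groups overlapped, with a log2 fold change of -0.21 ± 0.17 (SE, edgeR adjusted p = 0.489) and a 95% interval from 0.665 to 1.13 times the WT level. Gm14011, an antisense gene, and a small nucleolar RNA gene lie within Mertk, so a share of its reads may belong to them.

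C1qa encodes the A chain of C1q, which coats dying cells and starts the classical complement cascade (ENSMUSG00000036887, chromosome 4, 136895917 to 136898803, minus strand). It had 28.0, 25.0 and 36.4 CPM in KO replicates 2, 3 and 4, and 28.4, 21.7 and 24.0 CPM in WT replicates 1, 3 and 4, with overlap. Its log2 fold change of 0.27 ± 0.15 (SE) did not pass (edgeR adjusted p = 0.311), with a 95% interval from 0.950 to 1.53 times the WT level. C1qb and C1qc, the other two chains, had values of 0.38 ± 0.16 and 0.30 ± 0.14 (SE, adjusted p = 0.204 and 0.221). KO replicate 4 was the highest of the 6 libraries for each of the 3 chains, at 36.4, 42.2 and 38.5 CPM for C1qa, C1qb and C1qc.

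**Figure D4:**
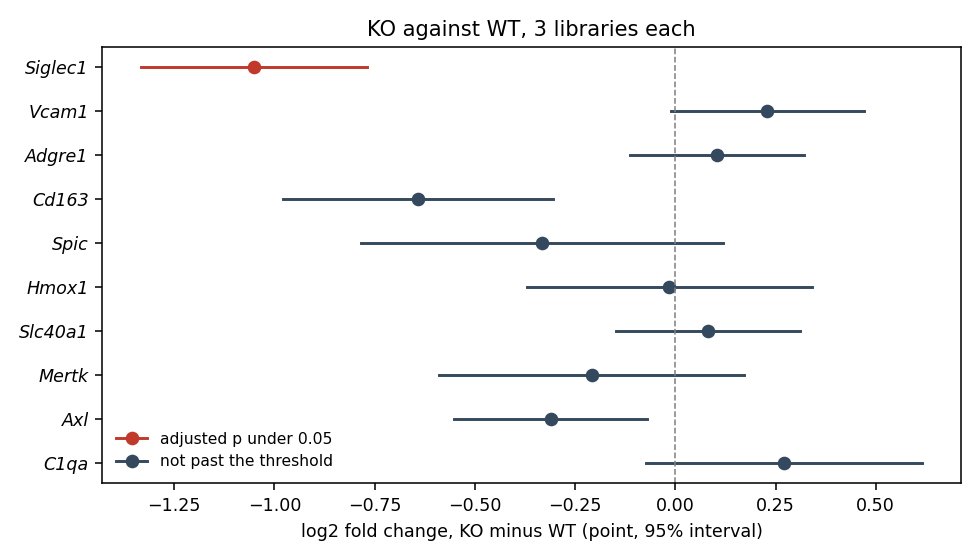
The log2 fold change of each gene, KO minus WT, with its 95% interval from edgeR. Siglec1 is the gene past the threshold, and the intervals of Cd163 and Axl also lie below 0 but their adjusted p values were 0.0564 and 0.126.

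Of 15 further genes of dying-cell clearance, 1 fell, 0 rose and 14 did not pass in edgeR, with a median log2 fold change of 0.02. The gene that fell was Abca1, a cholesterol exporter induced when macrophages take up dying cells. It had 16.7, 19.1 and 19.0 CPM in KO replicates 2, 3 and 4, against 28.4, 28.0 and 26.3 CPM in WT replicates 1, 3 and 4, without overlap. Its log2 fold change was -0.59 ± 0.10 (SE, edgeR adjusted p = 0.0252), and 0 of the 15 were called lower with the replicate number as a block, with the trend on exon length and GC content taken out, or without KO replicate 4 or WT replicate 1, 3 or 4. Pros1, which encodes a bridging ligand of Mertk, was 25.3 ± 6.78 CPM in KO and 16.7 ± 2.42 CPM in WT (SD), without overlap, at a log2 fold change of 0.60 ± 0.19 (SE, edgeR adjusted p = 0.110). Gas6, the ligand of Axl, had values of 23.1 ± 3.04 CPM in KO and 18.6 ± 10.6 CPM in WT (SD, edgeR adjusted p = 0.678). Tyro3, the third receptor of the family, was near the lower limit at 0.400 ± 0.190 CPM in KO and 0.440 ± 0.131 CPM in WT.

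Further identity genes of resident macrophages were examined as a list of 16, of which 13 passed the filter on low counts. In edgeR 0 rose and 0 fell, at an unadjusted p under 0.05 there was 1 higher and 2 lower, and the median log2 fold change was -0.01. Mrc1, the mannose receptor, had 26.6, 19.9 and 22.7 CPM in KO replicates 2, 3 and 4, against 35.6, 27.8 and 37.3 CPM in WT replicates 1, 3 and 4. Its groups did not overlap, and its log2 fold change of -0.54 ± 0.14 (SE) did not pass (edgeR adjusted p = 0.0734). In the list 1 gene was called lower with no low-count filter, DESeq2, limma, the replicate block or without KO replicate 2. Csf1r, the receptor for the macrophage growth factor, was 195 ± 12.6 CPM in KO and 199.9 ± 20.3 CPM in WT, and Cd68, a lysosomal protein of phagocytes, was 63.0 ± 5.62 CPM in KO and 63.4 ± 6.76 CPM in WT (SD, edgeR adjusted p = 0.871 and 0.974). Vsig4, Marco, Folr2 and Timd4, genes of macrophages in liver and body cavities, were at most 0.564 CPM in the KO libraries and 0.491 CPM in the WT libraries. The summed level of the 16 genes was 455 to 499 CPM in KO and 457 to 477 CPM in WT.

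Monocytes, dendritic cells and osteoclasts share genes with macrophages and were checked with markers of their own. Of 8 monocyte markers, Ly6c2 rose, with a log2 fold change of 0.50 ± 0.11 (SE, edgeR adjusted p = 0.0474, uncertain because of its close paralog Ly6c1), but not with library totals as the only scaling, the replicate block or the Xist covariate, nor without KO replicate 2 or 4 or any of the WT replicates, and the list had a median of -0.03. At an unadjusted edgeR p under 0.05, 1 monocyte marker was higher and 2 were lower (12.2% of all genes tested were lower). The lower 2 were Cx3cr1 (log2 fold change -0.71) and Cd14 (-0.65). DESeq2 called 1 monocyte marker higher and 2 lower. The summed level of the monocyte list was 2690 to 3462 CPM in KO and 2862 to 3453 CPM in WT. Of 8 dendritic cell markers 0 passed (median -0.19, 126 to 157 CPM in KO and 121 to 169 CPM in WT), and of 5 tested osteoclast markers 0 passed (median 0.06, 2067 to 2217 CPM in KO and 1520 to 2424 CPM in WT). Mmp9, which neutrophils also make, carried most of that sum, at 1968 to 2142 CPM in KO and 1410 to 2316 CPM in WT. The more specific Acp5 and Ctsk had log2 fold changes of -0.33 and -0.68 (edgeR adjusted p = 0.128 and 0.238). The part of these cells in the Siglec1 and Cd163 levels was not tested. Skeletal muscle, which could carry tissue macrophages of its own into a marrow sample, was low, with a summed level of 9.05 to 14.2 CPM in KO and 11.6 to 17.7 CPM in WT over 8 genes, of which Tnnt3, a troponin, fell (log2 fold change -0.99, edgeR adjusted p = 0.0473), a call that was lost without any 1 of the 6 libraries.

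**Figure D5:**
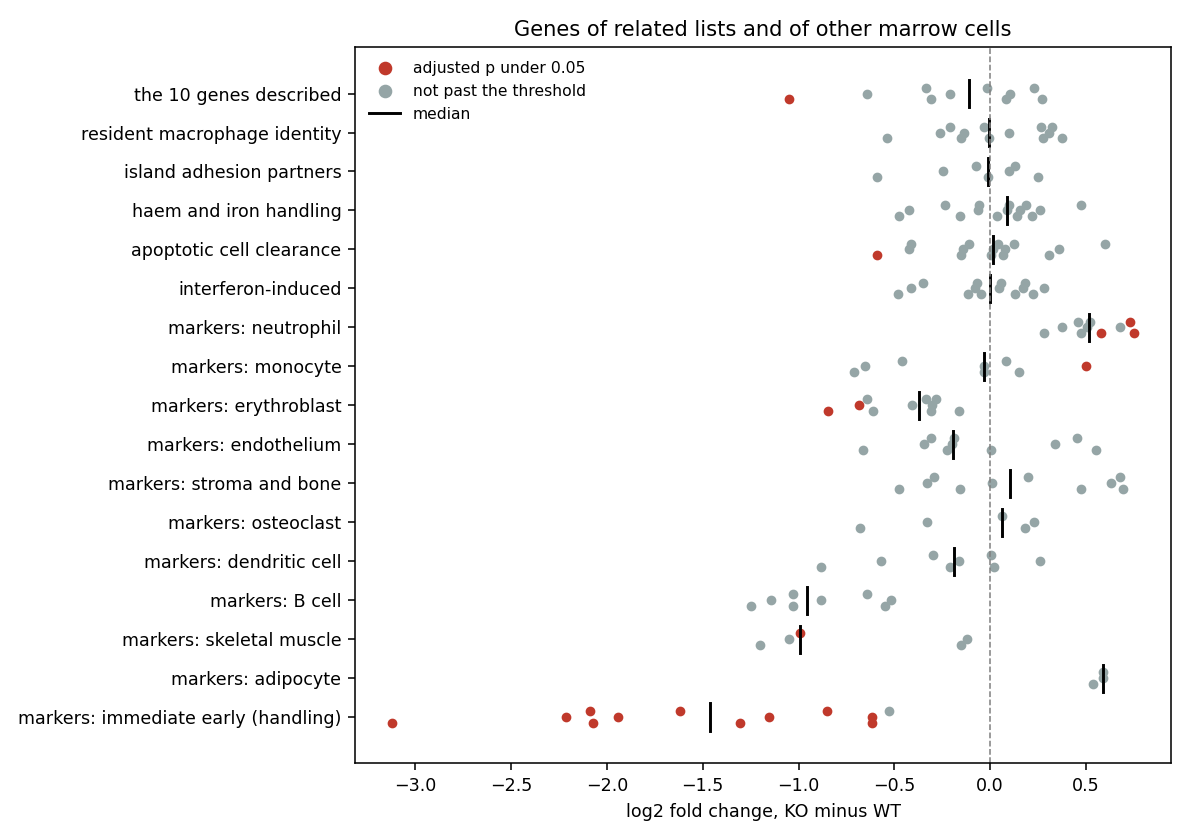
The log2 fold change, KO minus WT, of each tested gene in the 10 genes described, the related lists and the marker lists of other marrow cells, with a bar at the median. The 4 macrophage-related lists and the interferon list have medians between -0.01 and 0.09, whereas 11 of 12 immediate early genes are past the threshold below 0.

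Genes with the most similar pattern over the 6 libraries were sought for each of the 10 among the 12030 genes whose log2 CPM averaged 1 or more, by the root mean square difference of centred log2 levels. This is a description over 6 libraries and says nothing of shared function. Siglec1, whose own centred levels had an SD of 0.53, was closest to Gm26809 and Gm47173, at differences of 0.10 and 0.11. Cd163 was closest to Hbq1b, a haemoglobin gene, at 0.05 and to Gm15915 at 0.06, beside an own spread of 0.36. Axl was closest to Gypc, which encodes a red cell membrane glycoprotein, at 0.04 and to Spns2, a sphingosine phosphate transporter, at 0.04, beside an own spread of 0.19. Adgre1 and Slc40a1 had the same closest gene, Herc4, at 0.03 and 0.02. Vcam1 was closest to Zfp959 at 0.03, Mertk to Atg10 at 0.09 and C1qa to Ppp1ccb at 0.04. Spic was closest to Tnik at 0.04 and Hmox1 to Wdpcp at 0.06, beside own spreads of 0.28 and 0.21. Hbq1b is uncertain because it has a near-identical copy.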

How the data were processed

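The deposited table held whole-number read counts per gene for 6 libraries of poly(A)-selected bone marrow RNA. The authors' tools, per the submitters' processing notes, include STAR 2.5.2b, Trimmomatic 0.36 and Subread 1.5.2 with its featureCounts, and the build named is GRCm38. For the annotation release, the strand setting and multi-mapping reads, nothing is stated in the sources used here. Symbols, coordinates, exon lengths and 3' UTRs (of APPRIS principal transcripts, otherwise the longest) came from GENCODE M21 (GRCm38), which gave a symbol to 49056 of 49315 identifiers. The rest held 0.0171% of counts. MicroRNA sequences came from RefSeq (GRCm38.p6).

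The deposited counts went unaltered into edgeR 4.0.16 in R 4.3.3 (TMM, filterByExpr by group, robust quasi-likelihood test, two-sided, Benjamini-Hochberg over all genes tested, threshold 0.05). Levels are CPM on TMM-scaled totals. The procedure was tested on simulated data with known changes. DESeq2 1.42.0 and limma 3.58.1 (voom with library quality weights) were alternatives, beside 2 other scalings, 2 other filters, the replicate block, an Xist covariate, removal of the length and GC trend, abundant genes left out and each library left out. A floor of 3 counts corresponded to 0.0743 to 0.0886 CPM and covers counting error only.

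The members and lists were chosen with earlier results of these data known. The rule for named genes took the 10 members, the called genes of each list (up to 6, by smallest p) or otherwise the 2 with the smallest p, and the 2 most similar genes per member. Not every gene it takes is printed, and 1 is not reported here. Genes outside the rule were named after their values were seen.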

Additional observations from a re-analysis of the deposited data

How the results depend on the processing

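Siglec1 was lower in KO and past the threshold in all 10 alternative fits and all 6 fits without a library. The number of the 10 genes called lower was 1, and it was 2, with Cd163 added, with no low-count filter, library totals as the only scaling, DESeq2, limma with library quality weights or abundant genes left out. It ran from 1 to 2 when each library was left out, with 2 without KO replicate 2. None was called higher in any of these fits. Over all genes 417 passed, against 1492 with no filter, 1577 with DESeq2, 1057 with limma and those weights and 209 with the Xist covariate, and between 32 (without KO replicate 4) and 920 (without KO replicate 3) when a library was left out. It was also 33, 199 and 37 without WT replicate 1, 3 and 4. The causes were not tested. The direction of Hmox1 reversed with DESeq2 (0.00065) and with the replicate block (0.0937), and its values without a library ran from -0.19 to 0.12. Those of Slc40a1 ran from -0.0022 to 0.15. With the replicate number as a block 571 genes passed and Siglec1 had -1.06 (adjusted p = 0.00696). Only numbers 3 and 4 occur in both groups, and the deviations of same-numbered libraries correlated at 0.27 and -0.23. With 3 libraries per group, these values cannot show whether the numbers pair the libraries. The stroma, dendritic cell, osteoclast, adipocyte and interferon lists, with 0 called, had at most 1 gene called higher and at most 1 called lower in any of these fits. Spic, with the fewest reads of the 10 genes, also had the largest SE of the log2 fold change (0.20).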
